A study of Mus musculus with 14 samples.

Results

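The genes described here are 10 mouse genes of the antibody receptor system of myeloid cells. They comprise the 4 Fc gamma receptor genes Fcgr1, Fcgr2b, Fcgr3 and Fcgr4, the neonatal Fc receptor gene Fcgrt, the adaptor genes Fcer1g, Tyrobp and Hcst, and the inhibitory receptor genes Pirb and Sirpa. They were chosen by gene symbol, and all 10 were found among the 55367 symbols of each count table. All 10 passed the filter on low counts in both experiments.

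Messenger RNA was sequenced in 14 libraries of mouse bone marrow cells depleted of mature lineages, labelled wild-type in genotype and grown with the cytokines SCF, IL3 and IL6. Cells of the first experiment received lentivirus carrying luciferase, an inert control (n = 3), or SETBP1-D868N (n = 3), a mutant form of the nuclear protein SETBP1 found in myeloid leukaemia. In the second, all cells were labelled as carrying SETBP1-D868N and were exposed for 4 days to DMSO, the solvent (n = 4), or to 2.5 µM PF-9363 (n = 4), an inhibitor of MYST histone acetyltransferases. The first experiment used 500 ng of RNA and the second 100 ng with another library preparation, so levels were not tested between them. The mutant was added by a virus to otherwise wild-type cells, and luciferase cells given PF-9363 were not analysed here. The labels do not say whether replicates were separate cultures or animals, so the p-values measure only the spread between these libraries.

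Fc gamma receptors bind the constant part of IgG. The activating receptors encoded by Fcgr1, Fcgr3 and Fcgr4 signal through the gamma chain encoded by Fcer1g, whose cytoplasmic tail holds an immunoreceptor tyrosine-based activation motif (ITAM). Src-family kinases phosphorylate the motif and Syk then binds to it. Tyrobp and Hcst encode adaptors that serve many other activating receptors of myeloid and NK cells, Tyrobp through an ITAM and Hcst through a motif that binds phosphatidylinositol 3-kinase. Fcgr2b, Pirb and Sirpa carry inhibitory motifs (ITIMs) that recruit phosphatases. Fcgrt differs from the others: its protein pairs with beta-2 microglobulin and returns IgG from endosomes to the cell surface.

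The coding stretches below show the signalling motifs named above for 6 of these genes. They come from GENCODE M21 transcripts, run 5′ to 3′, and have the tyrosine codons in capitals. The 2 ITAM stretches each hold 2 tyrosine codons, at codons 65 to 79 of 86 in Fcer1g and 92 to 106 of 114 in Tyrobp. The Hcst stretch and the Fcgr2b stretch hold 1 each, at codons 72 to 75 of 79 and 317 to 322 of 340. Pirb and Sirpa are each shown by a stretch from the cytoplasmic tail, at codons 792 to 797 of 841 and 475 to 480 of 509. The short ITIM pattern that was searched is loose and does not separate the roles: it also matched Fcgr1 (3 places), Fcgr4, Fcgrt, Fcer1g (codons 41 to 46) and Tyrobp (codons 90 to 95, overlapping its ITAM).
Fcer1g: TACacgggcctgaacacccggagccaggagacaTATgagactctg
Tyrobp: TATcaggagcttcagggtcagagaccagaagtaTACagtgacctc
Hcst: TACatcaacatg
Fcgr2b: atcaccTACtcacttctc
Pirb: gtgaccTATgcccagctg
Sirpa: ctcaccTATgctgacctg

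Several of these genes are neighbours in GRCm38 (GENCODE M21). Fcgr2b (chr1:170958617-170976547, minus strand), Fcgr4 (chr1:171018920-171029761, plus strand), Fcgr3 (chr1:171051174-171064935, minus strand) and Fcer1g (chr1:171229572-171234365, minus strand) lie on chromosome 1. Tyrobp (chr7:30413760-30417585, plus strand) and Hcst (chr7:30417712-30419854, minus strand) are tail to tail with 126 bases between them. Fcgrt (chr7:45092990-45103851) and Pirb (chr7:3711409-3720391) are elsewhere on chromosome 7, Fcgr1 (chr3:96282909-96293969) is on chromosome 3 and Sirpa (chr2:129592835-129632228) on chromosome 2. All 10 are protein-coding. Of the 50-base stretches of Pirb exons, 37.3% also occur in other genes, most in Gm14548, and 12.8% of those of Fcgr3 occur in Fcgr2b. Reads from these shared stretches could have been assigned to either copy or dropped, so the Pirb values are less certain than the rest. To a lesser degree the same holds for Fcgr3, for Fcgr2b (7.4% in other genes, 5.0% in Fcgr3) and for ratios that hold both. Strand handling of the counting is not given in the sources used here, and Fcgr2b and Fcgrt each overlap a gene on the opposite strand.

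Library totals ran from 60147266 to 68730322 counts with luciferase or SETBP1-D868N and from 7083731 to 10359093 with DMSO or PF-9363. Luciferase libraries 2 and 3 lay closest together (chi-square per degree of freedom 2.29) and library 1 stood apart from them (27.4 and 28.1). Without library 1, 8 of the 10 genes were called lower with SETBP1-D868N, the same count as with it. Counts of the endogenous symbol Setbp1 were 5, 6 and 6 in luciferase libraries and 23, 20 and 24 in SETBP1-D868N libraries. In the second experiment they were 2, 1, 0 and 0 with DMSO and 0 in all 4 PF-9363 libraries. These counts do not bear out the label that the cells of the second experiment carried the mutant. Their depth is lower: 3 counts there correspond to 0.272 CPM or more, where Setbp1 was at a mean of 0.339 CPM in the SETBP1-D868N libraries of the first. Whether transgene reads are assigned to this symbol is not given in the sources used here. Among T cell markers, Cd3e had 3 counts or fewer in every library. Cd3d and Cd3g were at means of 0.297 and 0.286 CPM with luciferase. Summed markers of neutrophils were at 8820 to 17910 CPM over all libraries and those of mast cells and basophils at 967 to 4955 CPM. The cultures thus held transcripts of maturing myeloid cells beside those of progenitors.

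With SETBP1-D868N, 8 of the 10 genes fell and 0 rose. A call here is an adjusted p under 0.05 in edgeR's quasi-likelihood test, and 22.7% of the 15794 genes tested were called lower and 24.5% higher. At an unadjusted p under 0.05, 0 of the 10 were higher, and DESeq2 and limma-voom also called 0 higher. The median log2 fold change of the 10 was -0.39, beside 0.0043 for all genes tested. Values did not overlap between groups for 8 of the 10, against 56.7% of all genes. These were not the same 8 genes: Fcgr2b, not called, did not overlap, and Fcgr1, called lower, did. With PF-9363, 8 rose, 1 fell (Fcgr4) and 1 was not called (Hcst), where 36.6% of 13456 genes were called higher and 39.4% lower. Their median log2 fold change was 1.40, beside -0.04 for all genes, and 9 of the 10 did not overlap between groups, against 70.3% of all genes. Scaling by library size alone lowered the median of all genes by 0.23 on the log2 scale in the PF-9363 comparison, and under it the same 9 genes were called in the same directions.

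**Figure D1:**
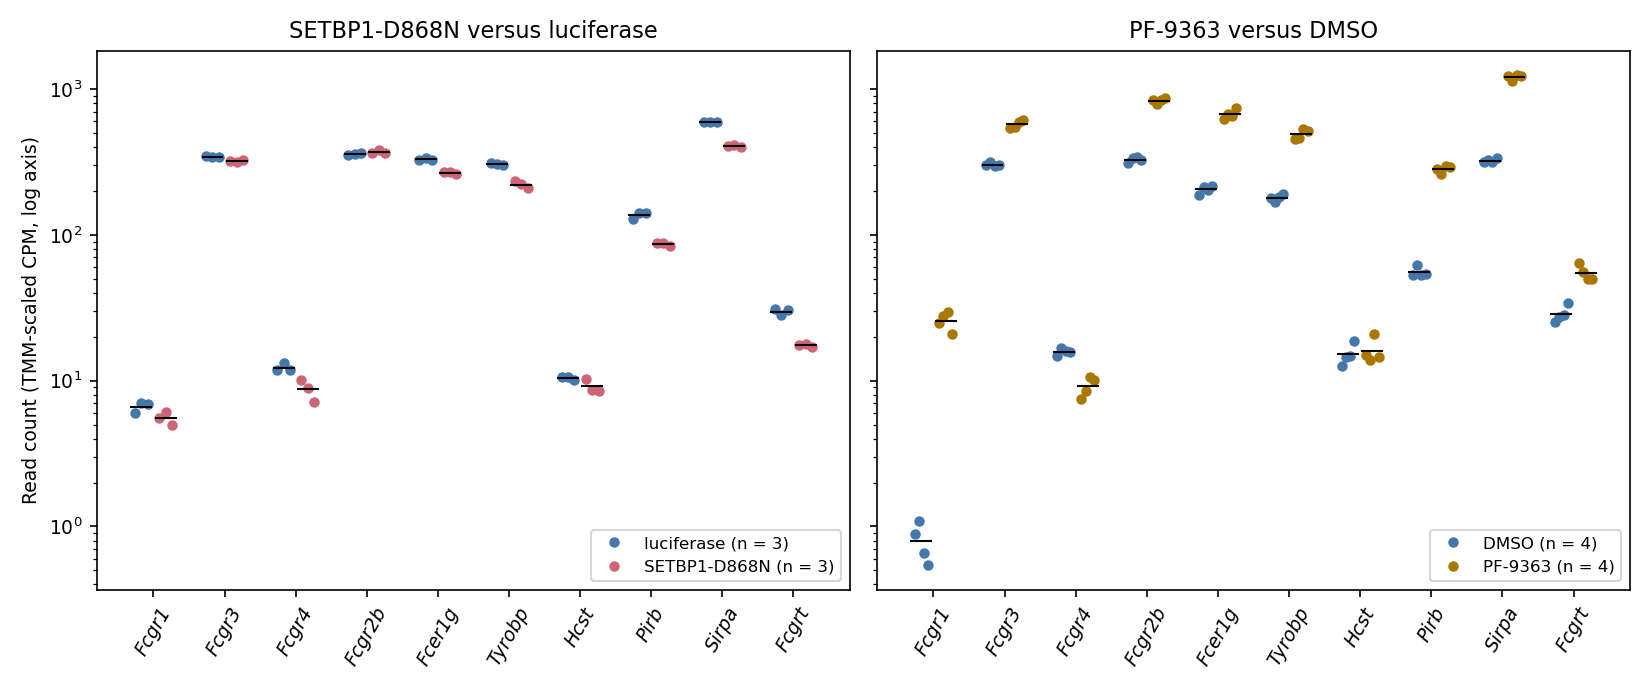
Read counts of the 10 genes in each library, as TMM-scaled CPM on a log axis; points are libraries and black lines are group means (n = 3 per group on the left, n = 4 on the right). Most genes sit slightly lower with SETBP1-D868N, while Fcgr1 rises from 0.543 to 1.09 CPM with DMSO to 20.9 to 29.4 CPM with PF-9363.

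Among the activating receptors, Fcgr1 encodes the high-affinity IgG receptor and changed most with PF-9363. Its level was 0.891, 1.09, 0.654 and 0.543 CPM (counts scaled to the library total by TMM) in the DMSO libraries and 25.0, 27.9, 29.4 and 20.9 CPM in the PF-9363 libraries. The DMSO values rest on 6 to 11 counts per library, and the groups lay far apart. The fold was 32.0 (95% interval 23.9 to 42.9; log2 fold change 5.0, SE 0.21, adjusted p = 1.13e-18). With luciferase Fcgr1 was at 5.95, 7.02 and 6.94 CPM and with SETBP1-D868N at 5.58, 6.11 and 4.93 CPM. These groups overlapped, and the log2 fold change was -0.26 (SE 0.098, adjusted p = 0.0468). That call was lost in 8 of 14 alternatives, with adjusted p up to 0.162, the value without luciferase library 2. It was also lost without luciferase library 3 (0.143), SETBP1-D868N library 1 (0.080) or SETBP1-D868N library 3 (0.15).

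Fcgr3 encodes the low-affinity activating receptor and was the most abundant Fc gamma receptor transcript per length in every group. It was at 347, 344 and 340 CPM with luciferase and at 322, 315 and 328 CPM with SETBP1-D868N. Every SETBP1-D868N library was below every luciferase library, by little: the log2 fold change was -0.10 (SE 0.025, adjusted p = 0.00638). That call did not hold with scaling by library size alone (-0.05, adjusted p = 0.126). With DMSO the values were 304, 314, 298 and 300 CPM and with PF-9363 538, 553, 597 and 616 CPM. The groups were clearly apart, with a fold of 1.90 (log2 fold change 0.92, SE 0.060, adjusted p = 3.63e-14).

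Fcgr4, which encodes a receptor of intermediate affinity for mouse IgG2 subclasses, was the only gene of the 10 to fall in both comparisons. With luciferase it was at 11.8, 13.3 and 11.8 CPM and with SETBP1-D868N at 10.2, 8.93 and 7.12 CPM. The SETBP1-D868N values were the more scattered, and the groups did not overlap (log2 fold change -0.49, SE 0.12, adjusted p = 0.0131). Its level was 14.7, 16.7, 16.1 and 15.8 CPM with DMSO and 7.5, 8.49, 10.6 and 10.2 CPM with PF-9363. All PF-9363 libraries were below all DMSO libraries, and the log2 fold change was -0.79 (SE 0.14, adjusted p = 9.08e-06). Fcgr4 lies between Fcgr2b and Fcgr3, 42372 and 21412 bases away, both of which rose with PF-9363. The ratio of Fcgr4 to Fcgr3 counts in a library went from 0.0521 ± 0.00241 (SD, n = 4) with DMSO to 0.0159 ± 0.00161 with PF-9363. That of Fcgr1 to Fcgr3 went from 0.00261 ± 0.000750 to 0.0450 ± 0.00758. Neither ratio was tested, since both were chosen after the values were seen.

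RefSeq start-site windows (GRCm38.p6, 250 bases before to 50 after the start) were at hand for 8 of the 10 genes, all but Tyrobp and Sirpa. The core of the site bound by PU.1 and related ETS factors of myeloid cells, GAGGAA, searched on both strands, was in the windows of 4 of these 8 genes, and in 28.3% of 32851 windows of all genes. Those 4 genes were Fcgr1, Fcgr3, Fcgr4 and Pirb, of which Fcgr4 fell with PF-9363 and the others rose. The windows of Fcgr2b, Fcgrt and Fcer1g, which also rose, and of Hcst, which was not called, held no match. Whether the letters bear on these changes was not tested. The stretches below show the match nearest the start, in capitals, with 20 bases on each side in the direction of transcription. The match began 55 bases before the start in Fcgr1, 15 before 1 of the 2 starts listed for Fcgr3, 22 in Fcgr4 and 87 in Pirb. Their places are chr3:96293999-96294044 (minus strand), chr1:171059384-171059429 (minus strand), chr1:171018884-171018929 (plus strand) and chr7:3720444-3720489 (minus strand).
Fcgr1: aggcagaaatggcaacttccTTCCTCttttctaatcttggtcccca
Fcgr3: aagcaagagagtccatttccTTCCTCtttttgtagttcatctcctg
Fcgr4: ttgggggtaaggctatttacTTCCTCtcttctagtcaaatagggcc
Pirb: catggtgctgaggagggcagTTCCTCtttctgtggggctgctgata
A motif of IRF factors was in the Fcgr4 window alone among the 8 (3.4% of all windows), and the STAT-type letters TTCNNNGAA in that of Fcgr1 alone (8.3%). Among the other motifs searched, on both strands, the C/EBP-type letters TTGCNNAA were in the windows of 2 of the 8 genes (10.8% of all windows) and the E-box letters CANGTG in those of 4 (44.9%). The AP-1 letters TGANTCA (7.8%) and the GATA letters AGATAA (11.2%) were in the windows of 0 of the 8. A match of letters is a description of the sequence and not a measured binding site.

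Fcgr2b encodes the inhibitory Fc gamma receptor, which is found on B cells and myeloid cells. With luciferase it was at 353, 360 and 362 CPM and with SETBP1-D868N at 366, 384 and 364 CPM. The SETBP1-D868N libraries were all slightly above the luciferase libraries, yet the gene was not called (log2 fold change 0.05, 95% interval -0.0073 to 0.11, adjusted p = 0.138). With scaling by library size alone it was called higher (0.10, adjusted p = 0.0106). The DMSO libraries were at 310, 336, 344 and 324 CPM and the PF-9363 libraries at 840, 784, 841 and 867.6 CPM. The groups did not overlap, and the fold was 2.54 (log2 fold change 1.34, SE 0.060, adjusted p = 6.21e-18).

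The counts of the 3 activating receptors relative to Fcgr2b in the same library do not depend on scaling between libraries. The ratio was 1.01 ± 0.0221 (SD, n = 3) with luciferase and 0.904 ± 0.0411 with SETBP1-D868N, and 0.978 ± 0.0474 (n = 4) with DMSO and 0.733 ± 0.0364 with PF-9363. Fcgr3 supplies most of the activating sum, and the groups did not overlap in either experiment. The ratios of counts here and below are not corrected for length, so they do not give relative transcript numbers. Per kilobase of annotated exon, Fcgr3 was at 198 CPM and Fcgr2b at 61.9 CPM with luciferase. The log2 difference was -0.16 (SE 0.042) with SETBP1-D868N and -0.41 (SE 0.051) with PF-9363. In 2-sided exact permutation tests over libraries, p was 0.1 and 0.0286, the smallest that 3 against 3 and 4 against 4 libraries allow. Adjusted over the 6 ratio tests, these were 0.1 and 0.0571, so neither passed 0.05. Fcgr3, the main part of the sum, had log2 fold changes of -0.10 and 0.92 in the 2 comparisons, beside 0.05 and 1.34 for Fcgr2b.

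Of the adaptor genes, Fcer1g encodes the gamma chain that the activating Fc receptors need at the cell surface. It was at 328, 337 and 326 CPM with luciferase and at 268, 271 and 262 CPM with SETBP1-D868N. The SETBP1-D868N libraries were all lower, by 19.1% (log2 fold change -0.31, SE 0.025, adjusted p = 1.54e-06). With DMSO it was at 187, 212, 204 and 217 CPM and with PF-9363 at 626, 678, 649 and 742 CPM. The groups were far apart, with a fold of 3.29 (log2 fold change 1.72, SE 0.066, adjusted p = 2.05e-19).

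Fcer1g was also set against the receptors it serves. Its counts relative to the summed activating receptors were 0.911 ± 0.0132 (n = 3) with luciferase and 0.796 ± 0.0250 with SETBP1-D868N. They were 0.640 ± 0.0418 (n = 4) with DMSO and 1.10 ± 0.0612 with PF-9363. The log2 differences of -0.19 (SE 0.029) and 0.79 (SE 0.063) went in opposite directions, and the groups overlapped in neither. The exact permutation p was again at its smallest possible values, 0.1 and 0.0286 (adjusted 0.1 and 0.0571).

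Tyrobp encodes the ITAM adaptor also known as DAP12. It was at 309, 305 and 301 CPM with luciferase and at 233, 222 and 210 CPM with SETBP1-D868N. All SETBP1-D868N libraries were lower (log2 fold change -0.46, SE 0.035, adjusted p = 7.70e-07). The DMSO libraries held 179, 168, 182 and 191 CPM and the PF-9363 libraries 453, 463, 530 and 516 CPM. The groups did not overlap, and the fold was 2.73 (log2 fold change 1.45, SE 0.065, adjusted p = 7.78e-18).

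Hcst encodes DAP10, the adaptor of the NK cell receptor NKG2D, and was called in neither comparison. It was at 10.7, 10.6 and 10.2 CPM with luciferase and at 10.3, 8.65 and 8.51 CPM with SETBP1-D868N. The groups overlapped through SETBP1-D868N library 1 (log2 fold change -0.19, 95% interval -0.36 to -0.026, adjusted p = 0.0566). Without that library the gene was called lower (-0.29, adjusted p = 0.00380). With DMSO it was at 12.6, 14.5, 14.8 and 18.7 CPM and with PF-9363 at 14.9, 13.8, 20.8 and 14.5 CPM. The groups overlapped widely, and the log2 fold change of 0.06 had a 95% interval of -0.23 to 0.36, which lies below the changes of the 8 genes that rose.

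The neighbouring adaptor genes Tyrobp and Hcst were also compared within libraries. Their ratio of counts was 29.1 ± 0.451 (n = 3) with luciferase and 24.2 ± 1.62 with SETBP1-D868N, and 12.1 ± 1.66 (n = 4) with DMSO and 31.3 ± 4.42 with PF-9363. No library of a treated group lay within the range of its control group. The log2 differences were -0.27 (SE 0.058) and 1.37 (SE 0.14), with exact permutation p of 0.1 and 0.0286 (adjusted 0.1 and 0.0571).

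**Figure D2:**
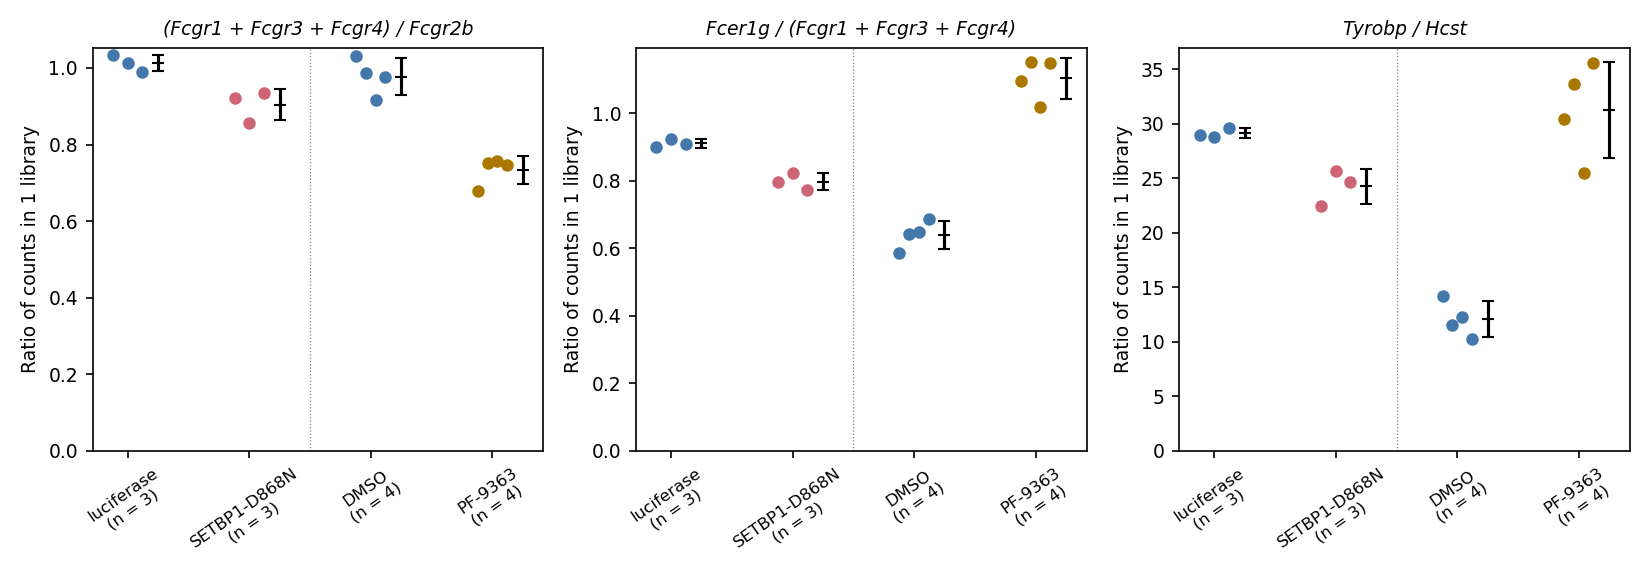
Ratios of read counts within each library for the activating to inhibitory Fc gamma receptors, Fcer1g to the activating receptors, and Tyrobp to Hcst. Points are libraries and bars are mean ± SD (n = 3 or 4); the first ratio is lower in both treated groups, while the other two are lower with SETBP1-D868N and higher with PF-9363.

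The inhibitory receptors Pirb and Sirpa fell with SETBP1-D868N and rose with PF-9363. Pirb, whose protein binds MHC class I and has several ITIMs, was at 128, 141 and 142 CPM with luciferase and at 87.3, 88.0 and 83.8 CPM with SETBP1-D868N. The SETBP1-D868N libraries were lower by 36.9% (log2 fold change -0.66, SE 0.041, adjusted p = 3.28e-07). In the second experiment it was at 53.4, 62.3, 53.1 and 54.0 CPM with DMSO and, with PF-9363, at 281, 259, 296 and 292 CPM. The groups were far apart, with a fold of 5.06, second among the 10 genes after Fcgr1 (log2 fold change 2.34, SE 0.069, adjusted p = 5.83e-22).

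Sirpa encodes the receptor for CD47, whose ligation restrains phagocytosis. It was at 593, 594 and 592 CPM with luciferase and at 407, 414 and 399 CPM with SETBP1-D868N. The luciferase libraries were nearly equal, and all SETBP1-D868N libraries were lower (log2 fold change -0.54, SE 0.024, adjusted p = 1.42e-08). The levels were 314, 325, 315 and 336 CPM with DMSO and, with PF-9363, 1220, 1132, 1244 and 1233 CPM. The fold was 3.74 (log2 fold change 1.90, SE 0.060, adjusted p = 2.27e-21). Its ligand gene Cd47 was called in neither comparison, with a log2 fold change of -0.02 (SE 0.026, adjusted p = 0.491) with SETBP1-D868N and 0.01 (SE 0.061, adjusted p = 0.847) with PF-9363.

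Fcgrt had the largest fall of the 10 genes with SETBP1-D868N. It was at 30.9, 28.0 and 30.5 CPM with luciferase and at 17.7, 17.9 and 17.0 CPM with SETBP1-D868N. The SETBP1-D868N libraries were lower by 41.0% (log2 fold change -0.76, SE 0.049, adjusted p = 2.43e-07). With DMSO it was at 25.1, 27.3, 28.0 and 34.3 CPM and with PF-9363 at 63.8, 55.8, 50.01 and 50.1 CPM. The groups did not overlap (fold 1.92, log2 fold change 0.94, SE 0.10, adjusted p = 2.45e-09). B2m, which encodes the partner chain beta-2 microglobulin, also fell with SETBP1-D868N (log2 fold change -0.28, SE 0.032, adjusted p = 1.76e-05) and rose with PF-9363 (1.09, SE 0.063, adjusted p = 2.88e-15).

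**Figure D3:**
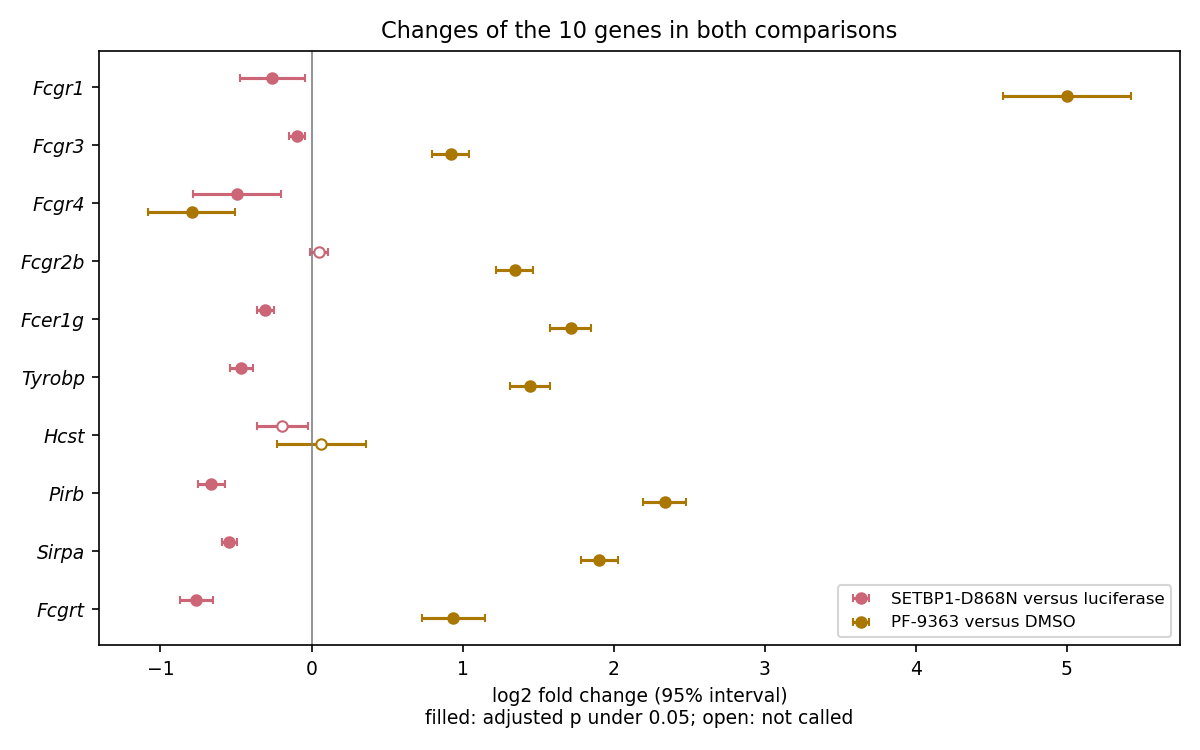
Log2 fold changes of the 10 genes with 95% intervals in both comparisons; filled points passed an adjusted p under 0.05 and open points did not. With SETBP1-D868N the changes run from -0.76 for Fcgrt to 0.05 for Fcgr2b, and with PF-9363 from -0.79 for Fcgr4 to 5.0 for Fcgr1.

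Levels between genes were compared per kilobase of annotated exon. With luciferase the order of the mean level was Tyrobp (458 CPM per kb), Fcer1g (378), Fcgr3 (198), Sirpa (121), Fcgr2b (61.9), Pirb (30.6), Hcst (14.5), Fcgrt (14.2), Fcgr4 (9.79) and Fcgr1 (2.56). Only Hcst and Fcgrt overlapped among these neighbours, and the order with SETBP1-D868N was the same. With DMSO the adaptor and receptor genes Tyrobp (270 CPM per kb), Fcer1g (235), Fcgr3 (175), Sirpa (65.7) and Fcgr2b (56.7) led again. Below them were Hcst (20.96), then Fcgrt (13.6), Fcgr4 (12.6) and Pirb (12.5), neighbours whose ranges overlapped, and Fcgr1 (0.307). With PF-9363, Fcer1g (771 CPM per kb) and Tyrobp (736) overlapped at the top, and Fcgr3 (332), Sirpa (246), Fcgr2b (144) and Pirb (63.1) followed. Fcgrt (26.1) overlapped Hcst (22.2), and Fcgr1 (9.96) overlapped Fcgr4 (7.31) at the bottom. With the longest transcript as the length, some neighbours changed places: Tyrobp and Fcer1g with SETBP1-D868N, Sirpa and Fcgr2b with SETBP1-D868N and with DMSO, Fcgr4 and Pirb with DMSO, and Fcgrt and Hcst with PF-9363. The levels of Fcgr2b and Hcst moved most, from 61.9 to 101 and from 14.5 to 23.7 CPM per kb with luciferase, and 32 of the 40 levels moved by more than the spread between libraries.

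The genes around these receptors moved largely the same way. They were listed with earlier results of these data known, so the counts of each list are a description only. Of all genes tested, 22.7% were called lower and 24.5% higher with SETBP1-D868N, and 39.4% lower and 36.6% higher with PF-9363. Of 28 genes that carry signals from the receptors (kinases, adaptors and their effectors), 18 fell, 1 rose and 9 were not called with SETBP1-D868N (median log2 fold change -0.15). With PF-9363, 25 rose, 0 fell and 3 were not called (median 0.87), and edgeR at an unadjusted p under 0.05, DESeq2 and limma-voom also had 0 lower. Among the Src-family kinases that phosphorylate ITAMs, Fgr fell with SETBP1-D868N from 90.4 ± 2.10 to 48.8 ± 3.60 CPM (SD, n = 3; log2 fold change -0.89, edgeR adjusted p = 3.05e-07). Src fell in that comparison (-0.41, adjusted p = 0.000229) and showed the largest rise of the list with PF-9363, 3.76 (adjusted p = 3.14e-15). Malt1, a scaffold protease of the pathway to NF-kappaB, fell with SETBP1-D868N (-0.47, adjusted p = 0.000455). Lat and Pik3ap1, which encode adaptors to phospholipase C and phosphatidylinositol 3-kinase, rose with PF-9363 (2.03 and 1.96, adjusted p = 4.13e-15 and 3.69e-21). The rise called with SETBP1-D868N was that of Card9 (0.12, adjusted p = 0.0427), which was lost under RLE scaling, DESeq2, no robust estimation and the replicate block, and without luciferase library 1, SETBP1-D868N library 1 or SETBP1-D868N library 2.

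Of 16 genes listed as regulators of these signals, most of them dampening, 9 fell, 0 rose and 7 were not called with SETBP1-D868N (median log2 fold change -0.17). By unadjusted p, DESeq2 and limma-voom 0 were higher. The list also holds Ptprc and Ptpn11, which can promote the signals, and the Sirpa ligand gene Cd47. With PF-9363, 12 rose, 2 fell and 2 were not called (median 0.47). Inpp5d, the lipid phosphatase recruited by the Fcgr2b motif, fell (-0.34, adjusted p = 4.53e-06) and rose (0.83, adjusted p = 5.18e-13). Ptpn6, a tyrosine phosphatase recruited by Pirb and Sirpa, likewise fell (-0.30, adjusted p = 1.26e-06) and rose (0.74, adjusted p = 3.89e-12). The genes lower with PF-9363 were Inppl1 (-0.98, adjusted p = 4.90e-05), which encodes a relative of Inpp5d, and Ptpn11 (-0.19, adjusted p = 0.00916). Without PF-9363 library 4 only 1 was called lower. Pag1 and Ptprc, which act on Src-family kinases, fell with SETBP1-D868N (-0.65 and -0.41) and rose with PF-9363 (1.64 and 1.02). Ubash3b, a phosphatase, and Cblb, a ubiquitin ligase, fell with SETBP1-D868N (-0.53 and -0.37). Inpp5d, Ptpn6 and Ptpn11 were named here after their values were seen.

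Of 28 receptors and receptor chains listed as users of Fcer1g, Tyrobp or Hcst, or linked to them, 25 were in the tables. With SETBP1-D868N 18 of 25 tested genes fell, 1 rose and 6 were not called (median log2 fold change -0.52). With PF-9363 19 of 20 tested genes rose and 1 fell (median 1.66). The 2 chains that join Fcer1g in the mast cell IgE receptor parted with SETBP1-D868N: Fcer1a, the IgE-binding chain, fell from 102 ± 2.43 to 63.6 ± 2.17 CPM (n = 3; edgeR adjusted p = 3.56e-08), while Ms4a2, the beta chain, rose from 225 ± 4.99 to 354 ± 6.20 CPM (edgeR adjusted p = 9.09e-09). With PF-9363 both rose, by 3.11 and 1.95 on the log2 scale (adjusted p = 5.54e-16 and 2.31e-20). Itgam, an integrin chain, and Cd300ld fell with SETBP1-D868N (-0.66 and -0.69, adjusted p = 1.44e-06 and 0.0139). The largest rise with PF-9363 was that of Clec4n (Dectin-2), a fungal receptor that uses Fcer1g, from 11.6 ± 1.63 to 241 ± 33.4 CPM (n = 4; log2 fold change 4.37, edgeR adjusted p = 6.90e-17). The Tyrobp partner Trem2 rose by 2.76 and the growth factor receptor gene Csf1r by 2.77 (adjusted p = 1.26e-21 and 1.47e-23). The fall was that of Trem3, from 73.7 ± 7.82 to 20.3 ± 2.48 CPM (n = 4; -1.87, edgeR adjusted p = 2.92e-16).

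Of 19 other genes listed as inhibitory receptors or their relatives, all tested with SETBP1-D868N, 11 fell, 1 rose and 7 were not called (median log2 fold change -0.38). Their motifs were not searched here. The list includes Lilr4b, Fcrla and Fcrlb, relatives not known to hold an inhibitory motif. Lilr4b is counted among the falls with SETBP1-D868N (-0.38) and the rises with PF-9363 (1.66). The falls were led by Cd300lf (-0.76, adjusted p = 0.00279), Cd33 (-0.60, adjusted p = 0.00439), Ceacam1 (-0.53, adjusted p = 9.05e-07) and Cd72 (-0.49, adjusted p = 0.000200), and the rise was that of the collagen receptor Lair1 (0.14, adjusted p = 0.00407). With PF-9363 13 of 18 tested genes rose, 3 fell and 2 were not called (median 0.99). Cd22 rose from 0.501 ± 0.174 to 6.76 ± 0.549 CPM (n = 4; 3.72, edgeR adjusted p = 5.96e-12), and Cd200r1, Pilra and Cd72 rose by 2.68, 2.42 and 1.91. The genes that fell were Siglecf (-1.81, adjusted p = 1.12e-10), Clec12a (-1.16, adjusted p = 2.11e-15) and Pecam1 (-0.43, adjusted p = 1.56e-07).

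Of 10 other antibody-binding or Fcgrt-linked genes, 6 of 7 tested fell with SETBP1-D868N and 5 of 6 tested rose with PF-9363, with median log2 fold changes of -0.88 and 1.89. By unadjusted p, DESeq2 and limma-voom, 0 moved against these directions. The C1q chains, which bind IgG in immune complexes, fell with SETBP1-D868N: C1qa by 1.09 on the log2 scale, C1qb by 0.88 and C1qc by 0.99 (adjusted p = 1.25e-05, 0.00237 and 4.12e-06). They rose with PF-9363 by 2.82, 2.73 and 1.99. Lgals3, a lectin that also binds IgE, fell (-0.64, adjusted p = 3.56e-08) and rose (1.80, adjusted p = 1.41e-17).

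**Figure D4:**
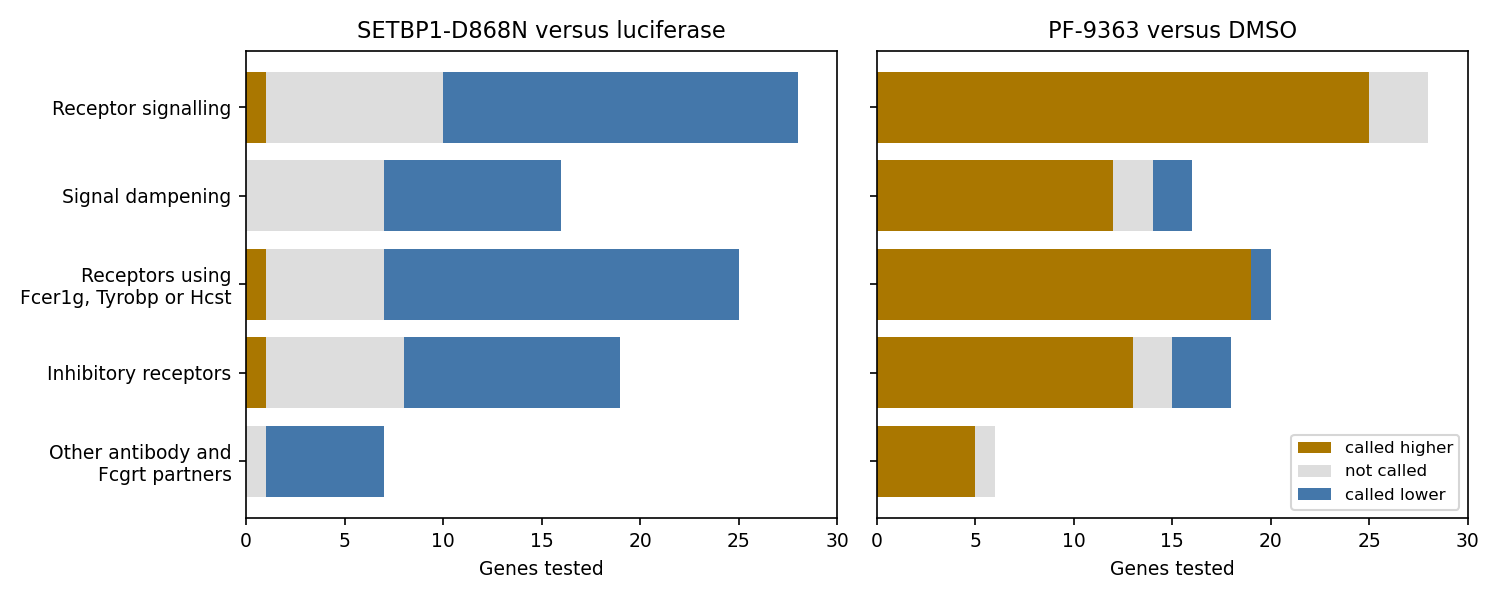
Number of tested genes called higher (brown), not called (grey) and called lower (blue) in each of the 5 gene lists around the receptors, in both comparisons (adjusted p under 0.05). Blue bars are the longer with SETBP1-D868N, as in 18 of 28 signalling genes, and brown bars with PF-9363, as in 25 of 28.

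Markers of cell types that normally carry these receptors moved in the same libraries; in bulk RNA, more or fewer cells of a type and more or less RNA per cell cannot be told apart. Of 6 macrophage markers (Adgre1, Cd68, Mrc1, Mertk, C1qa and Cd5l), 5 were tested and all 5 fell with SETBP1-D868N and rose with PF-9363. Their summed level was 530 to 568 CPM with luciferase, 321 to 341 with SETBP1-D868N, 339 to 422 with DMSO and 2517 to 3128 with PF-9363, while Cd5l had 3 counts or fewer in every library of the second experiment. Mast cell and basophil markers summed to 4557 to 4771 CPM with luciferase and 4107 to 4224 with SETBP1-D868N. There 3 of 6 were called higher (Mcpt8 0.48, Gata2 0.21 and Hdc 0.12) and 3 lower (Cpa3 -0.54, Tpsb2 -1.86 and Cma1 -0.78). They summed to 967 to 1228 CPM with DMSO and 3958 to 4955 with PF-9363, with 5 of 6 higher and Mcpt8 not called (-0.14). Cpa3 alone went from a mean of 419 to 2674 CPM. Neutrophil markers summed to 17057 to 17910, 12330 to 13879, 11349 to 13564 and 8820 to 9460 CPM in the 4 groups in that order, and these sums combine opposite changes. With SETBP1-D868N the primary granule genes Elane, Mpo and Prtn3 rose (log2 fold changes 0.34, 0.40 and 0.29) and S100a8, Ltf and Ngp fell (-0.81, -0.79 and -0.74). With PF-9363 Elane fell from 1450 ± 70.7 to 1.74 ± 1.49 CPM (SD, n = 4), Mpo from 2315 ± 304 to 6.34 ± 4.03 CPM and Prtn3 from 1052 ± 86.9 to 7.29 ± 6.25 CPM. Ltf rose (1.11), and S100a8 and Ngp were not called (-0.08 and -0.01). The part of these shifts in the receptor values was not tested.

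Markers of lymphoid cells were low throughout. B cell markers summed to 4.73 to 5.39 CPM in the first experiment, 5.87 to 10.1 CPM with DMSO and 0.308 to 1.52 CPM with PF-9363. The difference with PF-9363 was that of Cd79b alone, the 1 marker of the 5 that was tested there, which went from 7.70 ± 1.65 to 0.0541 ± 0.108 CPM (SD, n = 4). Cd79a was at 0.585 ± 0.383 and 0.711 ± 0.436 CPM, and Ms4a1 was at 0 in all 8 libraries. NK cell markers summed to 10.3 to 10.6 CPM with luciferase, 6.34 to 6.48 with SETBP1-D868N, 0.594 to 1.03 with DMSO and 2.17 to 4.12 with PF-9363, with Klrb1c and Klrd1 at 0 in the second experiment. Most of the sum was the transcription factor gene Eomes, at means of 8.63, 5.85, 0.544 and 2.37 CPM in the same order. T cell markers were at most 1.34 CPM in any library, and dendritic cell markers at most 19.8 CPM. Of the lymphoid markers tested with SETBP1-D868N, Pax5 (log2 fold change -1.47), Klrd1 (-1.73), Eomes (-0.56) and Cd3g (-1.87) were called lower. Cd79b (0.13) and Cd3d (-0.78) were not called. Pax5 and Cd3g were at means of only 0.212 and 0.286 CPM with luciferase. Progenitor markers summed to 743 to 767 CPM with luciferase, 766 to 801 with SETBP1-D868N, 145 to 169 with DMSO and 477 to 566 with PF-9363. With SETBP1-D868N Kit fell from 180 ± 2.81 to 114 ± 3.36 CPM (n = 3) and the other 4 (Cd34, Gata2, Mecom and Hlf) rose. With PF-9363 Gata2, which is also in the mast cell list, rose from 56.0 ± 3.55 to 296 ± 24.7 CPM (n = 4), Kit from 69.7 ± 5.88 to 191 ± 18.7 CPM and Mecom from 1.12 ± 0.102 to 2.51 ± 0.444 CPM, while Cd34 (0.17) and Hlf (-0.12) were not called. Erythroid and megakaryocyte markers summed to 267 to 283, 287 to 312, 39.2 to 46.6 and 208 to 229 CPM in the same order, most of it Itga2b in each group.

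Across the 14 libraries, likeness to the 2 ITAM adaptors was measured as the root mean square difference of log2(CPM + 0.5), each gene centred within its experiment, over 11251 genes. The closest to Fcer1g were Nfkbia (0.0602), Snx10 (0.0630) and Susd6 (0.0686), where the median gene was at 0.695. The closest to Tyrobp were Gabarap (0.0591), Birc3 (0.0647) and Anxa1 (0.0709), where the median gene was at 0.613. Among the 10 genes, Sirpa was nearest to Fcer1g (0.124) and Tyrobp next (0.139), while Fcgr1 (1.02) and Fcgr4 (0.947) were farther from Fcer1g than the median gene. The libraries share group shifts and depth, so these values describe likeness of pattern in these samples alone.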

How the data were processed

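Each experiment has 1 table deposited by the authors, holding raw counts for every gene symbol, whole numbers that the labels call raw. STAR, DESeq2 and the builds GRCm38 and mm10 are named, without roles, per the submitters' processing notes; the counting program, annotation and strand handling are not given in the sources used here. Groups were taken from the sample titles. Each experiment was fitted alone with edgeR 4.0.16 in R 4.3.3 (filterByExpr, minimum count 10 and minimum total 15; TMM; glmQLFit with robust estimation; glmQLFTest, 2-sided), with Benjamini-Hochberg adjustment over all genes tested and calls at adjusted p under 0.05. SE is the size of the log2 fold change over the square root of its F statistic. CPM is the usual scaling of counts to the TMM-scaled library total. Ratios were compared by exact permutation over libraries. The fit was tested on simulated data. The 10 genes were chosen by symbol, and they and all lists were chosen with earlier results of these data known; list genes are named by the 4 largest called changes with at least 5 CPM, and the other list genes named (Card9, Lair1, Trem3, Inpp5d, Ptpn6, Ptpn11, Siglecf, Clec12a, Pecam1, B2m, Cd47) were picked once values were known; some genes that this rule names are not reported here. Alternatives were RLE or library-size scaling, other filters, DESeq2 1.42.0, limma-voom (limma 3.58.1), no robust estimation, a replicate block and leaving out each library. Lengths, positions and coding stretches come from GENCODE M21 and start-site windows from RefSeq. Depth was 60147266 to 68730322 and 7083731 to 10359093 counts per library. Fcgr1 had 6 to 11 counts per library with DMSO and 189 to 243 with PF-9363, so its DMSO level rests on few counts.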

Additional observations from a re-analysis of the deposited data

Results flagged for a closer look

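In 26 sets of values of 4 libraries (the 10 genes and 3 ratios with DMSO and with PF-9363), the gap of the most extreme library to its neighbour was compared with the whole range, and 3 exceeded Dixon's 95% critical value for 4 samples; chance gives about 1 in 20. For Pirb with DMSO the share was 0.896, with library 2 at 62.3 CPM and the others at 53.1 to 54.0. For Hcst with PF-9363 it was 0.838, with library 3 at 20.8 CPM and the others at 13.8 to 14.9. For the ratio of activating to inhibitory Fc gamma receptors with PF-9363 it was 0.848, with library 1 at 0.679 and the others at 0.746 to 0.757.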

How the results depend on the processing

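With SETBP1-D868N, 6 to 9 of the 10 genes were called lower over the 14 alternatives, and 1 was called higher under library-size scaling (Fcgr2b). Fcgrt, Fcer1g, Tyrobp, Pirb, Sirpa and Fcgr4 were called in all 14. Fcgr1 was lost with limma-voom (adjusted p = 0.0616), without robust estimation (0.0588), with library-size scaling (0.0970) and when libraries were left out, as given above. Hcst was called under RLE scaling (0.0471) and with no filter (0.0236). With PF-9363 the calls were 8 higher and 1 lower in all 16 alternatives. The uncalled change of Hcst turned negative with library-size scaling (-0.17), without DMSO replicate 1 (-0.020) and without PF-9363 replicate 3 (-0.061), and leaving out 1 library at a time gave -0.061 to 0.18; the cause was not tested. The log2 differences of the ratios kept their sign in every alternative run.

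Replicate numbers did not pair the libraries (correlations of same-numbered deviations -0.097 to 0.008), and no pair of replicates agreed within sampling noise. With the replicate block, 7 genes were called lower with SETBP1-D868N (Fcgr1 lost, adjusted p = 0.0611) and 8 higher and 1 lower with PF-9363.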
